A study of Mus musculus with 24 samples.

Results

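The mouse miRNAs numbered miR-3057 to miR-3113 were taken from the array by their number alone, with any letter or arm, which gave 114 of the 1881 miRNAs on the array. Of the 57 numbers in this block, 54 had at least 1 row, and 58 pairs of a 5p and a 3p arm were on the array. Each such pair is counted as a hairpin below, so the outer and the inner pair of miR-3102 are counted separately. Numbers are given to miRNAs in the order in which they enter the miRBase registry, so neighbours in number share a time of discovery and not a family, and for most of these miRNAs no settled function is known.

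A miRNA is cut from a hairpin precursor by the nucleases Drosha and Dicer. Either strand of the hairpin stem can yield a mature miRNA, called the 5p or the 3p arm, and usually 1 strand is loaded into an Argonaute protein while the other is lost. The seed, bases 2 to 8 of the mature strand, pairs with target mRNAs. On the array used here the 3′ end of every RNA is labelled with a cyanine 3 nucleotide, and the label is not specific to miRNAs.

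The RNA came from livers of 3 male C57BL6 mice of an Il1a knock-out strain, called mouse 7, mouse 9 and mouse 10, and each mouse gave 1 array in each of 8 groups (24 arrays). Total RNA including small RNAs was isolated from tissue put into preservative at once (0 h) or kept for 96 h at room temperature, in each case with or without on-column DNase digestion. A kit that loses most small RNAs gave, from the 0 h tissue and with DNase, RNA depleted of small RNAs, which was hybridised untreated or after 30 min at 37 °C with 0 U, 0.026 U or 0.67 U of RNase. The incubated RNA was isolated a second time with a kit that keeps small RNAs, so incubation and isolation both lie between the untreated and the 0 U arrays, and depleted RNA still holds some miRNA. All 3 mice carry the knock-out, no wild-type mouse was compared, and the age was not given in the sources used here. The RNA integrity number was 8.9 to 9 at 0 h and 2.3 to 2.4 at 96 h with DNase, 9 to 9.2 at 0 U, 6 to 7 at 0.026 U and 2.4 to 2.9 at 0.67 U. The sample labels contradict each other over which array of mouse 9 had 0.026 U and which 0.67 U. These arrays were grouped by the descriptions, and the RNase comparison averaged both doses. The integrity number of the 2 arrays went with the descriptions, at 6 for 0.026 U and 2.4 for 0.67 U. The 3 arrays of a group are separate mice, and mouse, slide and scan cannot be told apart.

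Signals are given as normalised signals, the background-corrected total intensity of a miRNA multiplied by a scale factor of its array. The factor was 0.306 to 0.478 on the 96 h arrays and 0.918 to 1.91 on the other arrays. Changes are given in glog2 units, which equal log2 units for bright miRNAs. Near 0 a small difference in intensity can be a large change in glog2 units. Where a mean signal was below 0 at the start, the change in glog2 units is no fold change, and a bound against the lowest detected signal of each array is given in its place ("at least N-fold"). Calls of higher or lower required an adjusted p under 0.05 (limma, Benjamini-Hochberg over the 631 miRNAs tested) and a change of at least 1 glog2 unit. The 5 hepatocyte markers of the marker list, miR-122-5p among them, were found on every array of DNase-treated total RNA, with a summed signal of 10546 to 18275 in fresh and 1282 to 3407 in stored tissue. The 3 neural and 3 striated muscle markers were found on none of the fresh DNase-treated arrays (0 of 3). The endothelial markers fell from a summed 387 to 648 at 0 h with DNase to 17 to 61.9 at 96 h, and 1 of 3 striated muscle markers was detected on 3 of 3 arrays at 96 h. Fewer cells of a type and less RNA per cell cannot be told apart in whole tissue, and the part of cell composition in the changes below was not tested.

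The sequences that the results turn on are shown first, with the seed in capitals. They are RefSeq mature sequences of build GRCm38.p6, which held 102 of the 114 miRNAs, and positions are those of that build, not of the mm9 build of the array design. The hairpins with both arms tested are shown as pairs, because their arms answered degradation differently.

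miR-3102-5p: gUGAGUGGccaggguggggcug
miR-3102-3p: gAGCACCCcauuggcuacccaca
miR-3102-5p.2-5p: gGUGGUGCaggcaggagagcc
miR-3102-3p.2-3p: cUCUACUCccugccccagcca
miR-3104-5p: uAGGGGGCaggagccggagcccucu
miR-3104-3p: aCGCUCUGcuuugcucccccaga
miR-3058-5p: uCAGCCACggcuuaccuggaaga
miR-3058-3p: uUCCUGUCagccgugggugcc
miR-3110-5p: uUCUGCCUccccugaaggcuc
miR-3110-3p: gCACUCCAucggaggcagacac
miR-3098-5p: uCCUAACAgcaggaguaggagc
miR-3098-3p: uUCUGCUGccugccuuuagga

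The miR-3102 hairpin is listed with 4 products on the minus strand, within the span of Arhgef17, which encodes a guanine nucleotide exchange factor. They are the outer 5p arm at chr7:100882388-100882409, the 5p.2 product directly inside it at chr7:100882367-100882387, the 3p.2 product at chr7:100882330-100882350 and the outer 3p arm at chr7:100882307-100882329. The arms of miR-3104 lie on the plus strand at chr7:141992180-141992204 and chr7:141992218-141992240, within the span of the kinase gene Brsk2. The arms of miR-3058 lie on the minus strand within Nudt4, the 5p arm at chr10:95559286-95559308 and the 3p arm at chr10:95559244-95559264. Those of miR-3110 lie on the plus strand within Tmem255a, at chrX:38210453-38210473 and chrX:38210488-38210509. The miR-3098 arms, at chr6:125195807-125195828 and chr6:125195845-125195865 on the plus strand, lie in no protein-coding span of the table. The table gives gene spans and does not say whether a position is exonic or intronic.

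The next sequences belong to miRNAs of which 1 arm carried the signal. The first 6 rose with storage, the following pair was not called, and the last pair was lost with storage.

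miR-3081-5p: gACUGGAGcuuggagcggugagc
miR-3082-5p: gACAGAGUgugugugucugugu
miR-3091-5p: cAUGGGUCugguugggcccgc
miR-3057-5p: aUUGGAGCugagauucugcgggau
miR-3099-3p: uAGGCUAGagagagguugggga
miR-3095-3p: uGGACACUggagagagagcuuuu
miR-3085-3p: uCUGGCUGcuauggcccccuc
miR-3092-3p: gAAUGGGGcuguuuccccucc
miR-3069-3p: uUGGACACuaaguacugccaca
miR-3068-3p: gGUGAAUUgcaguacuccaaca

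Of these, miR-3081-5p lies at chr16:44558092-44558114 (minus strand, within Boc) and miR-3082-5p at chr17:25831406-25831427 (minus strand, within the overlapping spans of Jmjd8 and Stub1). The last pair lies on the minus strand of chromosome 12. Of it, miR-3069-3p is at chr12:105031078-105031099 in no protein-coding span and miR-3068-3p at chr12:87437685-87437706 within Alkbh1. Seeds were rarely shared: among the miRNAs printed here, miR-3085-3p has the seed of miR-3064-5p, miR-3102-5p that of miR-702-5p and miR-3058-3p that of miR-7681-5p. Some hairpins of the block lie opposite a better known one. Mir3074-1 and Mir3074-2 are on the other strand of Mir24-1 and Mir24-2, Mir3065 of Mir338, and Mir3071 of Mir136.

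Most of the block was silent on these arrays. There were 66 of the 114 miRNAs (57.9%) detected on no array, against 53% of the other miRNAs on the array, and 12 were detected on 1 to 4 arrays. The 36 that passed the filter (detection on at least 5 of 24 arrays) are 31.6% of the block, against 33.7% of the other miRNAs. Passing the filter went with degraded RNA, since 22 of the 36 were detected only on 96 h arrays or arrays with RNase, and 8 of these only at 96 h. Counts over the 36 therefore describe the miRNAs that passed and not the block. How many tested miRNAs outside the block had this detection pattern was not counted, so the pattern cannot be read as particular to it. Detection rose over the whole array too: DNase-treated total RNA gave a mean of 299 detected miRNAs per array from fresh tissue and 643 from stored tissue. By hairpin, neither arm was detected anywhere in 20 of 58, 1 arm passed in 24, and both arms passed in 6.

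In fresh tissue 10 miRNAs of the block were detected on all 3 arrays with DNase: miR-3068-3p, miR-3069-3p, miR-3072-5p, miR-3081-5p, miR-3082-5p, miR-3085-3p, miR-3092-3p, miR-3095-3p, miR-3098-5p and miR-3102-5p. The number detected per array was 10.7 ± 0.577 (SD, n = 3) at 0 h with DNase and 10.7 ± 1.15 without it. At 96 h it was 36.7 ± 1.53 with DNase and 35 ± 2.65 without it. Every array of stored tissue had at least 32 of them detected, and no array of fresh total RNA more than 12.

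RNA depleted of small RNAs kept nearly the same number, 9.33 ± 1.53 untreated and 10 ± 1.73 at 0 U. With RNase it was 17.3 ± 7.51 at 0.026 U and 20 ± 5.2 at 0.67 U, and on each mouse both RNase arrays were above the 0 U array. The array of mouse 9 grouped at 0.026 U had 26 detected and the other 0.026 U arrays 13 each, while the array of mouse 9 grouped at 0.67 U had 17. With the doses of mouse 9 taken from the titles these numbers change places. Over all miRNAs the depleted RNA differed more from fresh total RNA, with 203 ± 23.9 detected untreated and 299 ± 12.1 at 0 h with DNase.

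**Figure D1:**
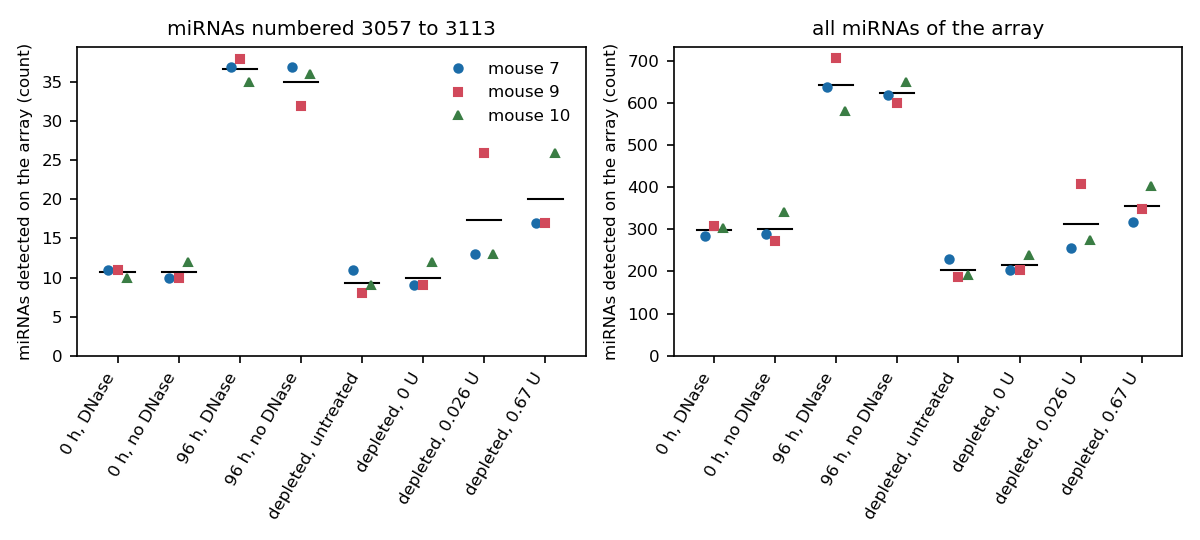
Number of miRNAs detected on each array (y axis, count) in the 8 groups (x axis), for the miR-3057 to miR-3113 block on the left and for the 1881 miRNAs of the array on the right. Points are arrays by mouse and lines are group means; on the left the 96 h arrays sit between 32 and 38, above the other groups.

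Storage for 96 h was compared with 0 h to find which signals change as liver RNA degrades. With DNase digestion, 29 of the 36 tested miRNAs of the block were called higher and 3 lower, where 60.4% of the miRNAs tested were called higher, 21.6% lower and 81.9% in either direction. Of the 36, 22 had been detected only on 96 h arrays or arrays with RNase, so the filter itself favoured calls of higher. The same limit holds without DNase and with RNase below. The median change was 4.20 glog2 units over the 36 and 2.47 over the 631. In 35 of the 36 the 0 h and 96 h arrays did not overlap, as in 85.9% of all miRNAs tested, and miR-3092-3p was the exception. Every probe of a called miRNA moved in the direction of its call (32 of 32). With other scalings the median change of all miRNAs fell from 2.47 to 0.80 (75th percentile) or 0.77 (quantile), with 21 higher and 3 lower (46.9% and 24.9% of all), or 22 higher and 5 lower (44.8% and 30.3% of all), of the block.

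Among miRNAs already detected at 0 h, miR-3102-5p had 29.3 on mouse 7, 15.4 on mouse 9 and 17 on mouse 10 at 0 h with DNase. At 96 h it had 1419, 1596 and 943.7 on the same mice. All 3 stored arrays were above all 3 fresh ones, 65.4-fold in the mean (change 5.97 ± 0.456 SE, adjusted p = 9.5e-10). For miR-3081-5p the signals were 20.6, 19.6 and 17.3 at 0 h and 802.6, 408.9 and 600.2 at 96 h, 30.4-fold higher (4.86 ± 0.44, adjusted p = 6.4e-09).

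For miR-3095-3p they were 6.4, 6.6 and 12.3 before and 177.9, 242.2 and 448.7 after storage, 33.4-fold higher (4.91 ± 0.613, adjusted p = 3.6e-07). miR-3072-5p lies in the imprinted Dlk1-Dio3 region, a cluster that expresses many miRNAs from the maternal chromosome. It rose from 7.9, 10.1 and 8.2 to 177.6, 212.6 and 122.5, 19.2-fold (4.12 ± 0.371, adjusted p = 6.2e-09). miR-3082-5p rose from 5.1, 6.5 and 7.3 to 163.4, 176.4 and 119.3, 24.3-fold (4.42 ± 0.456, adjusted p = 3.1e-08). miR-3098-5p rose 5.12-fold, from 19.7, 21.6 and 17.9 to 110.8, 102.4 and 90.1 (2.30 ± 0.397, adjusted p = 2.0e-05), but by 0.23 with no call after quantile normalisation.

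The 4 largest increases on the glog2 scale were in miRNAs not detected on any 0 h array with DNase. miR-3113-5p was at -0.2, -0.9 and -0.5 at 0 h and at 114.6, 112.7 and 84.1 at 96 h, at least 92.8-fold higher (8.26 ± 0.848, adjusted p = 3.0e-08). miR-3099-3p, from within the span of Usp29, a deubiquitinase gene, was at -1.5, -0.2 and -0.3 and then at 93.6, 79.5 and 13.9, at least 42.4-fold higher (7.48 ± 1.08, adjusted p = 2.3e-06). On mouse 10 the rise was the smallest of the 3 mice.

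The other members of that group stayed dim. miR-3059-3p reached 3.2, 4.3 and 5.3 (at least 3.77-fold higher, adjusted p = 5.8e-08) and miR-3089-5p 3.9, 4.2 and 2.4 (at least 3.10-fold higher, adjusted p = 6.7e-09). Their changes in glog2 units, 7.11 and 6.94, are no folds, since they began below 0. Neither was called with the 75th percentile (0.71 and 0.49) or normexp (0.20 and 0.18), nor was miR-3089-5p after quantile normalisation (0.91). miR-3077-5p, chosen after its values were seen, went from 0.3, 0.8 and 0.4 to 111.8, 62.2 and 374.7, at least 124.3-fold higher (adjusted p = 8.2e-09).

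**Figure D2:**
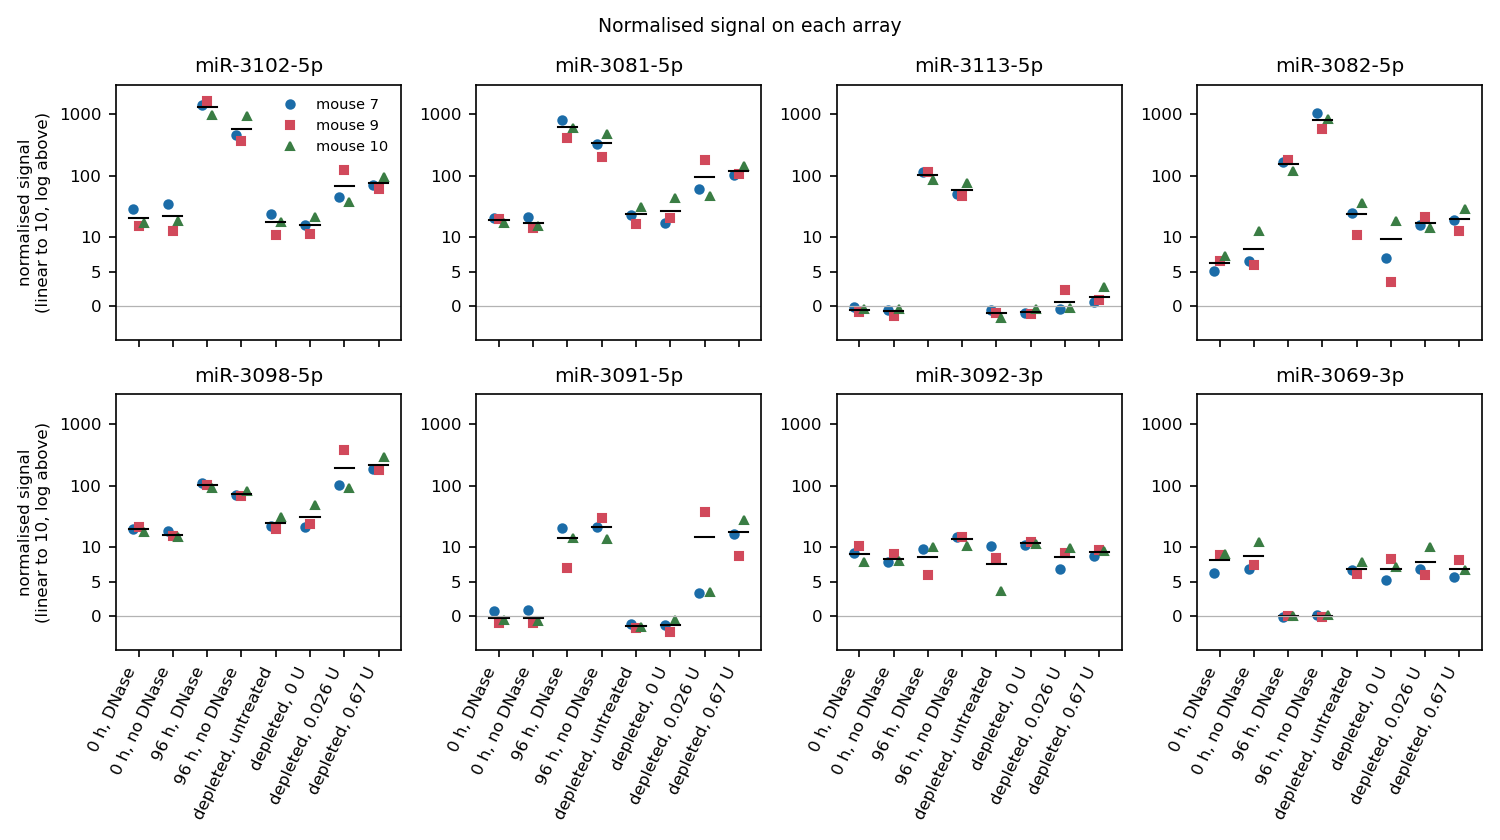
Normalised signal (y axis, linear to 10 and logarithmic above) of 8 miRNAs on each of the 24 arrays, by group (x axis). Points are arrays by mouse and lines are group means; miR-3069-3p is at 0 on the 96 h arrays and between 5.2 and 12.2 on the others, while miR-3102-5p reaches 1596 at 96 h.

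Not all of the block rose. miR-3069-3p was the clearest loss. Its signals were 6.3, 8.9 and 9.1 at 0 h with DNase, and between -0.1 and 0.1 on the 6 arrays of stored tissue, where it was detected on none. This is at least 14.6-fold lower with DNase (-4.01 ± 0.267, adjusted p = 2.1e-10) and at least 13.9-fold lower without it (-3.92 ± 0.267, adjusted p = 3.1e-10). It was detected on all 18 arrays of fresh tissue, whatever had been done to the RNA.

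miR-3068-3p was detected on the 6 fresh arrays of total RNA and on no other array. Its signals fell from 1.6, 2.6 and 2.9 to 0.3, 0.3 and 1.2 with storage, at least 3.36-fold (-1.61 ± 0.364, adjusted p = 0.00037). The call was lost with the 75th percentile, at -0.74 with DNase and -0.87 without it, and with normexp, at -0.49 and -0.43. Before the scale factors were applied, the 0 h and 96 h intensities of miR-3068-3p with DNase overlapped. miR-3100-3p, whose sequence lies within Dmpk, had 2.5, 2.8 and 3.2 at 0 h and 1.2, 0.9 and 1.7 at 96 h (-1.07 ± 0.263, adjusted p = 0.00087). It was called lower with DNase and not without it (-0.95 ± 0.263), and without mouse 9 the change with DNase was -0.88 and no longer called. With normexp the change with DNase was -0.18 and not called. Before the scale factors were applied, the intensities of miR-3100-3p at 96 h with DNase were not below those at 0 h, so its call rests on the scaling.

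miR-3085-3p and miR-3092-3p were not called with storage. miR-3085-3p had 9.2, 11 and 8.5 at 0 h and 15.4, 11.6 and 16.9 at 96 h, a change of 0.53 ± 0.189 that was below the size limit for a call. All of its stored arrays were nonetheless above all of its fresh ones, a small rise. miR-3092-3p had 9.2, 10.4 and 7.8 and then 9.8, 6 and 10.1 (-0.16 ± 0.275, adjusted p = 0.59), and its groups overlapped.

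Without DNase, storage raised 29 of the 36 and lowered 2, where 60.5% of all tested were called higher, 23% lower and 83.5% in either direction. These arrays are not those of the comparison with DNase. The comparisons shared 27 of the higher calls, 93.1% of either list, and both lower calls without DNase, miR-3068-3p and miR-3069-3p, were among the 3 with it. miR-3104-3p (1.17 ± 0.229) and miR-3110-5p (1.02 ± 0.296) were called higher only without DNase, but they changed in the same direction with it, by 0.85 and 0.85. The call of miR-3110-5p was lost without mouse 10 (0.73). miR-3058-5p (1.55 ± 0.578) and miR-3070-2-3p (2.28 ± 0.903) were called higher only with DNase, and neither was called without mouse 7 (1.21 and 1.43), nor miR-3070-2-3p without mouse 9 (2.22). The test of the difference between the storage effects called 0 of the 36 (limma, 1.11% of all tested), with 2 of the 36 at an unadjusted p under 0.05. These were miR-3082-5p, whose storage effect was 2.05 ± 0.645 larger without DNase (adjusted p = 0.12), and miR-3098-3p, with 1.40 (adjusted p = 0.27).

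Depleted RNA with RNase was set against 0 U to see which signals appear when longer RNA is broken in vitro. Of the 36 miRNAs, 21 were called higher and 0 lower (limma), where 44.7% of all tested were called higher and 0% lower. At an unadjusted p under 0.05, 22 of the 36 were higher and 0 lower. The exact rank test, 6 arrays against 3, called 0 in either direction, with a smallest adjusted p of 0.057 over all miRNAs. The median change was 1.76 glog2 units over the 36 and 0.69 over the 631. This split depends on the scaling, which moved the median of all miRNAs to 0: with the 75th percentile 11 were higher and 7 lower (24.9% and 29.2% of all tested), and with quantile normalisation 12 were higher and 5 lower (25% and 23.1%). With 1 mouse left out the higher calls numbered 16 to 23 (33.3% to 46.6% of all tested). Taken alone, 0.026 U called 17 of the 36 higher (36.6% of all tested) and 0.67 U called 21 (44.8% of all higher, 0.475% lower, 45.3% in either direction).

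miR-3091-5p, from within the ribosomal protein gene Rps21, had the largest change. It was at -1.4, -2.3 and -0.6 at 0 U. It was at 3.4, 36.8 and 3.5 at 0.026 U and at 16.7, 8.8 and 27.6 at 0.67 U, and was detected on 6 of 6 RNase arrays, at least 8.48-fold higher (6.51 ± 0.947, adjusted p = 9.3e-06). miR-3057-5p, from within Apba3, was at -1.6, -0.6 and -0.9, then at 3.9, 22.8 and 4.6 at 0.026 U and 8.5, 13.5 and 15 at 0.67 U, at least 7.26-fold higher (5.20 ± 0.568, adjusted p = 2.8e-07). It was detected on 1 of 3 arrays at 0.026 U and 3 of 3 at 0.67 U. With 96 h of storage miR-3057-5p reached only 3.5, 1.5 and 1.7 and was detected on 1 of 3 arrays with DNase. Its storage call with DNase (3.41) was lost with the 75th percentile (0.17), quantile normalisation (0.65) and normexp (0.084). The call without DNase was lost too, at 0, 0.37 and 0.073.

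miR-3059-3p (5.12 ± 0.668) and miR-3099-3p (4.73 ± 0.939) were the remaining of the 4 largest, but both stayed near 0. miR-3059-3p was at -0.3, 0.6 and 2.5 at 0.67 U and miR-3099-3p at 1.8, 1.5 and 2.9. With the 75th percentile or quantile scaling neither was called, at changes of 0.33 and 0.36 for miR-3059-3p and 0.70 and 0.64 for miR-3099-3p.

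Several miRNAs that were already detected at 0 U also rose. miR-3098-5p rose from 21, 23.8 and 48.8 at 0 U to 104, 377.8 and 92.4 at 0.026 U and 186.5, 176.7 and 289.5 at 0.67 U, 6.22-fold (2.58 ± 0.344, adjusted p = 3.2e-06). miR-3102-5p rose 4.27-fold (2.0 ± 0.395, adjusted p = 0.00024) from 15.8, 11.2 and 21.4 to between 37.7 and 121.2, and miR-3081-5p 3.88-fold (1.90 ± 0.381, adjusted p = 0.00029) from 17.4, 20.4 and 43.3 to between 47.6 and 181.5. For these last 2 miRNAs the other scalings left the direction but ended the call. miR-3095-3p rose from 3.2, 4.8 and 12.5 to 57.9, 73.4 and 163 at 0.67 U (3.26 ± 0.531, adjusted p = 3.3e-05). On the glog2 scale the RNase and 0 U arrays did not overlap in 20 of the 36, against 41.5% of all tested. Of the 21 called, 18 did not overlap and were higher on 6 of 6 RNase arrays than on the 0 U array of the same mouse. On the scale of the normalised signals 17 of the 21 did not overlap, since miR-3113-5p then did.

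On both scales the arrays of miR-3067-3p, miR-3070-2-3p and miR-3082-5p overlapped, and these were higher on 5 of 6. The change of miR-3082-5p, 1.03 ± 0.395, turned to -0.12 with the 75th percentile and -0.17 with quantile normalisation. That of miR-3070-2-3p, 2.01 ± 0.782, turned to -0.034 with normexp, and this miRNA was detected on none of the RNase or 0 U arrays. Neither was called without mouse 7 (0.99 and 1.99) or without mouse 9 (0.61 and 1.29). miR-3113-5p, at 0.6, 0.8 and 2.7 with 0.67 U against -1.1, -1.2 and -0.4 at 0 U, was also called (2.19 ± 0.734, adjusted p = 0.018), but not without mouse 7 (2.51) or mouse 9 (1.45).

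All 21 miRNAs called higher with RNase were also called higher with storage and DNase, 72.4% of the 29 storage calls. These comparisons share no array, though they share the mice. Of the 36 tested, 29 were called higher with storage, and 22 had been detected only on 96 h arrays or arrays with RNase. A large overlap was therefore likely in advance and is no independent support. For the other miRNAs on the array 95% of the RNase calls were among the storage calls, which was 70.5% of the latter. Called higher with storage but not with RNase were miR-3058-5p, miR-3065-3p, miR-3071-3p, miR-3072-5p, miR-3089-5p, miR-3098-3p, miR-3102-3p and miR-3102-3p.2-3p. Their changes with RNase ran from -0.71 for miR-3098-3p to 0.96 for miR-3102-3p. For miR-3072-5p the change was 0.86 ± 0.321, below the size limit, with an adjusted p of 0.034. miR-3069-3p, lost with storage, had 5.7 to 10.3 on the RNase arrays and 5.2 to 8.3 at 0 U (0.03 ± 0.231, adjusted p = 0.97).

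**Figure D3:**
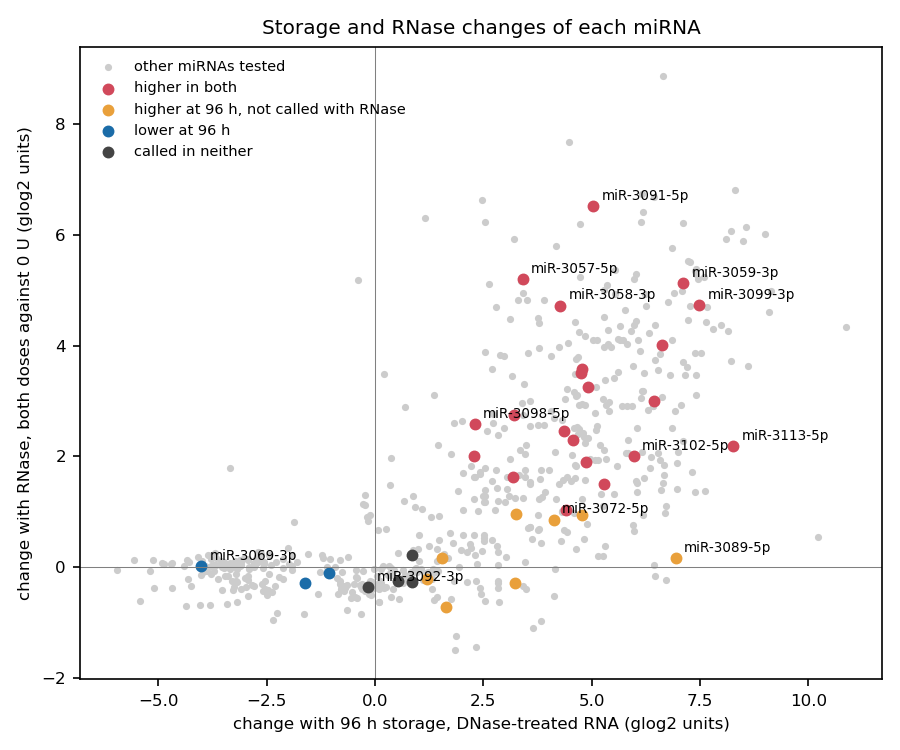
Change with 96 h of storage in DNase-treated RNA (x axis) against the change with RNase in RNA depleted of small RNAs (y axis), both in glog2 units; coloured points are the 36 miRNAs of the block that were tested and grey points the other miRNAs tested. The 21 called higher in both comparisons lie at the upper right, and miR-3069-3p lies at -4.01 on the x axis and 0.03 on the y axis.

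The arms of a hairpin come from the same precursor and were measured on the same arrays. The difference between their changes was tested as the change of the 5p glog2 value minus that of the 3p value. For storage with DNase the arms changed unequally in 5 of the 6 arm pairs of the block that were tested, where 82.6% of all 92 pairs tested did. The outer and the inner pair of miR-3102 come from the same hairpin, so the 6 pairs are not all separate hairpins. Without DNase it was again 5 of 6 (83.7% of all) and with RNase 5 of 6 (64.1% of all).

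In the miR-3102 hairpin the 5p side rose more. The outer 3p arm was at 2.5, 1.4 and 1.8 at 0 h with DNase and at 19.5, 11.3 and 77.8 at 96 h, and the outer 5p arm is given above. The 5p arm rose by 2.70 ± 0.618 glog2 units more than the 3p arm with storage and DNase (adjusted p = 0.00040, 3 of 3 mice), and by 1.56 ± 0.618 more without DNase (adjusted p = 0.024). With RNase the difference was 1.04 ± 0.535 (adjusted p = 0.097) and was not called. Without DNase the call was lost when mouse 7 (1.64) or mouse 9 (0.89) was left out. It was also lost with the 75th percentile (1.17) and with quantile normalisation (1.49).

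The inner pair of the same hairpin behaved alike. The 5p.2 product went from 3.2, 3.6 and 4 to 101.9, 142.3 and 78.8 with storage, and the 3p.2 product from 2.6, 3.3 and 2.4 to 8, 6.6 and 9.1. The difference was 3.37 ± 0.482 with storage and DNase (adjusted p = 1.9e-06), 1.99 ± 0.482 without DNase (adjusted p = 0.00086) and 2.51 ± 0.418 with RNase (adjusted p = 2.3e-05). With normexp the differences for storage without DNase and for RNase were 0.86 and 0.67 and not called. The rise of the 3p.2 product with storage and DNase, 1.19 ± 0.212, turned to -0.23 with quantile normalisation. On the RNase arrays it was at 2.4 to 4.1, and it was at 3.4 to 4 at 0 U.

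The arms of miR-3104 also differed toward 5p. miR-3104-5p went from -0.3, -0.7 and -0.8 to 8.3, 6.8 and 4 with storage, and miR-3104-3p from 3.3, 3.1 and 2.1 to 6.9, 4.7 and 7.3. The difference was 3.50 ± 0.563 (adjusted p = 7.9e-06), 2.59 ± 0.563 without DNase (adjusted p = 0.00032) and 2.72 ± 0.487 with RNase (adjusted p = 5.4e-05). With the 75th percentile scaling, which sets signals under 1 to 1, neither storage difference was called (1.0 and 0.038). With normexp none of the differences was called, at 0.28 and 0.12 for storage with and without DNase and 0.27 with RNase. The rise of miR-3104-3p without DNase turned to -0.13 with quantile normalisation.

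In miR-3058 and miR-3110 it was the 3p arm that rose more. miR-3058-3p went from 0.9, 1.3 and 1.8 to 44.5, 36 and 45.9 with storage, and miR-3058-5p from 0.3, 1.7 and 1.2 to 5, 5.7 and 4. With RNase miR-3058-3p was at 5.9, 7 and 11.8 at 0.67 U against -1, -2.1 and 0.1 at 0 U, while miR-3058-5p stayed between -1.1 and 0 on these and the 0.026 U arrays. The difference was -2.72 ± 0.946 with storage and DNase (adjusted p = 0.012), -3.46 ± 0.946 without DNase (adjusted p = 0.0022) and -4.54 ± 0.819 with RNase (adjusted p = 5.6e-05). The first of these was -2.86 and not called without mouse 7 (adjusted p = 0.084). With normexp the difference with RNase was -0.28 and not called.

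miR-3110-3p went from -0.2, -0.4 and -0.3 to 20, 30.2 and 6.8, and miR-3110-5p from 0.4, 0.5 and 0 to 1.8, 1.4 and 1.7. The difference was -3.91 ± 0.841 with storage and DNase (adjusted p = 0.00022), -2.06 ± 0.841 without DNase (adjusted p = 0.028) and -3.29 ± 0.728 with RNase (adjusted p = 0.00045). Without DNase the call was lost when mouse 7 (-1.73) or mouse 9 (-1.88) was left out. With normexp none of these differences was called, at -0.76 and -0.18 for storage with and without DNase and -0.18 with RNase.

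The miR-3098 hairpin differed from the other pairs. With RNase the 5p arm rose by 3.29 ± 0.555 more than the 3p arm (adjusted p = 2.7e-05), whose signals were -0.5 to 0 there. With storage the difference was 0.67 ± 0.641 with DNase and -0.92 ± 0.641 without it, and neither was called. At 96 h omission of DNase moved the arms in opposite directions, so that their signals came closer. The signals of miR-3098-3p were 1.4, 1.7 and 2.9 with DNase and 11.8, 6.9 and 15.9 without it. Those of miR-3098-5p were 110.8, 102.4 and 90.1 with DNase and 70.1, 68.3 and 80.6 without it. The difference was -2.69 ± 0.641 (adjusted p = 0.0097, against 9.78% of all hairpins called).

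**Figure D4:**
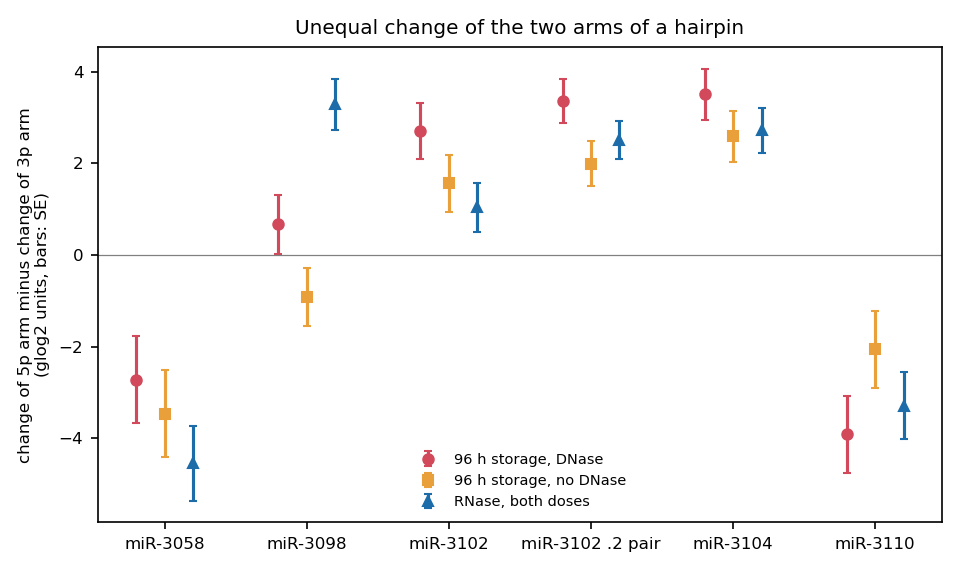
Change of the 5p arm minus change of the 3p arm (y axis, glog2 units, bars are SE) in the 6 arm pairs of the block that were tested (x axis). The miR-3102 hairpin gives its outer pair and its inner pair, miR-3102-5p.2-5p and miR-3102-3p.2-3p. Values above 0 mean a larger rise of the 5p arm; miR-3058 and miR-3110 lie below 0 in all 3 comparisons, and miR-3102, its inner pair and miR-3104 above 0.

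The rule used no sequence, and base content was compared with the changes as a description. In each of the 5 arm pairs called in either storage comparison, the arm that rose more was the one with the higher share of guanine. The same held in each of the 5 pairs called with RNase. The storage calls hold both the outer and the inner pair of the miR-3102 hairpin. In miR-3102 this share was 59.1% in the 5p arm and 17.4% in the 3p arm, in its inner pair 52.4% and 9.52%, and in miR-3104 44% and 17.4%. In miR-3058 it was 26.1% in the 5p arm and 33.3% in the 3p arm, and in miR-3110 19% and 27.3%. Outside the block the arm richer in guanine rose more in 47 of 56 called hairpins with both sequences for storage with DNase, 43 of 54 without DNase, and 37 of 40 with RNase.

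Across the 32 tested miRNAs of the block with a sequence, the guanine share and the storage change with DNase had a Pearson r of 0.71 and a Spearman rho of 0.71. With RNase they were 0.57 and 0.61. For the guanine and cytosine share together the r was lower, 0.31 with storage and 0.22 with RNase. Over the other 494 miRNAs tested with a sequence the r with guanine was 0.64 for storage and 0.64 for RNase, and with the guanine and cytosine share 0.56 and 0.35. These values are across miRNAs measured on the same arrays, which are not independent.

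By class, the 18 miRNAs with a sequence that were called higher in both comparisons had a median guanine share of 43.2% (27.3% to 59.1%). In the 7 called higher with storage but not with RNase it was 23.8% (9.52% to 54.5%), and in the 3 called lower 19% (18.2% to 22.7%). The highest of the 7 was miR-3072-5p. The 60 with a sequence that were detected on no array had a median of 23.8%, close to the 22.7% of the 809 other undetected miRNAs. Of the 24 hairpins with 1 arm tested, 19 had both sequences, and in 15 of these the tested arm had more guanine than its partner. The exceptions were miR-3069, miR-3071, miR-3085 and miR-3100. This was not counted for hairpins outside the block, so it cannot be read as particular to the block. Outside the block, tested miRNAs had a median guanine share of 33.3%, above that of the undetected ones.

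**Figure D5:**
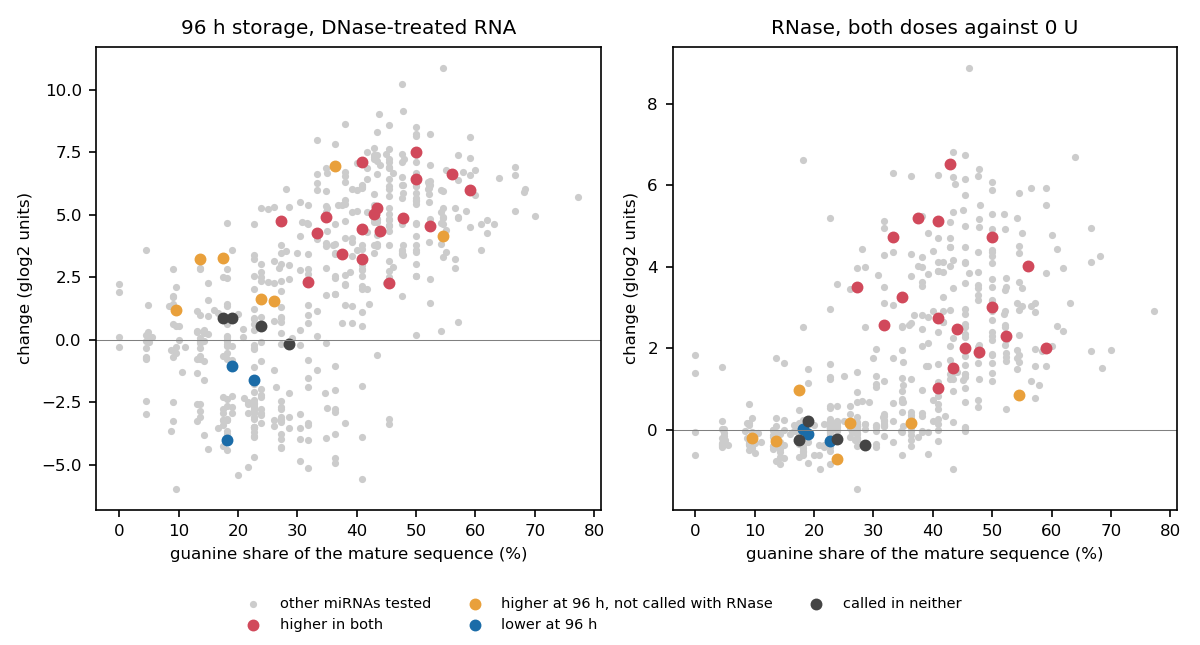
Guanine share of the mature sequence (x axis, percent) against the change with storage and DNase (left) and with RNase (right) on the y axis, in glog2 units; coloured points are tested miRNAs of the block with a sequence and grey points other tested miRNAs. Red points, called higher in both comparisons, lie between 27.3% and 59.1% guanine, and the blue points, called lower with storage, between 18.2% and 22.7%.

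The DNase comparisons asked whether residual DNA adds signal. At 0 h omission of DNase called 0 of the 36, and limma called 0% of all miRNAs tested. None of the 36 had an unadjusted p under 0.05 (0 of 36). The rank test could call none with 3 against 3. At 96 h it called 2 of the 36, both higher without DNase, where 6.18% of all were called higher and 10.8% in either direction. miR-3082-5p was at 163.4, 176.4 and 119.3 with DNase and at 1046, 563.5 and 822.4 without it, 5.20-fold higher in the mean with no overlap (2.38 ± 0.456, adjusted p = 0.0012). miR-3098-3p is described above (2.23 ± 0.41, adjusted p = 0.00091). Without mouse 7 neither was called, and without mouse 10 the number of calls was 5. No share of all miRNAs is given for these fits, so the 5 cannot be set against the array.

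miR-3082-5p holds a run of 10 bases in which G and U alternate. Such runs of at least 8 bases, a length chosen after these values were seen, were in 7 of the 526 tested miRNAs with a sequence. All 7, miR-3082-5p among them, were called higher without DNase at 96 h, with changes from 2.18 to 3.72, and none of the 477 miRNAs with a sequence that were not called held one. Of the 39 miRNAs called higher, 23 had a sequence. miR-3098-3p has no such run. Whether genomic repeats took part was not tested.

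Depletion of small RNAs, untreated depleted RNA against total RNA at 0 h with DNase, called 2 of the 36 higher and 3 lower, where 5.39% of all were called higher, 24.4% lower and 29.8% in either direction. These arrays share the 0 h controls with the storage comparison. miR-3082-5p was at 5.1, 6.5 and 7.3 in total RNA and at 24.5, 11.1 and 36.5 in depleted RNA, 3.46-fold higher (1.68 ± 0.456, adjusted p = 0.0062), but was no longer called without mouse 7 (1.47). miR-3098-3p went from 0.3, -0.3 and -0.3 to 2.1, 1.9 and 0.7 and was detected on none of these arrays (1.76 ± 0.41, adjusted p = 0.0017). It was not called without mouse 9 (1.37).

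The 3 called lower were miR-3058-3p (-2.85 ± 0.925, adjusted p = 0.022), miR-3058-5p (-3.31 ± 0.578, adjusted p = 9.3e-05) and miR-3070-2-3p (-3.32 ± 0.903, adjusted p = 0.0063). They were detected on none of the 6 arrays, so no fold is given. miR-3058-3p was not called without mouse 7 (-3.31), nor was miR-3070-2-3p without mouse 7 (-3.45) or mouse 9 (-2.73). The calls depend on the scaling: the 75th percentile gave 15 higher and 0 lower (39.9% and 13% of all tested), and quantile normalisation 5 higher and 1 lower (17% and 18.9%). Both miRNAs called lower in both storage comparisons were measured here too. miR-3068-3p went from 1.6, 2.6 and 2.9 to 1.6, 0.8 and 0.1 and was detected on 0 of 3 depleted arrays (-0.72 ± 0.364, adjusted p = 0.16). miR-3069-3p was at 6.7, 6.1 and 7.9 in depleted RNA, 1.16-fold below total RNA (-0.14 ± 0.267, adjusted p = 0.80).

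Incubation and second isolation without RNase, 0 U against untreated depleted RNA, called 0 of the 36 (limma, 1.74% of all tested). At an unadjusted p under 0.05, 2 were higher (miR-3085-3p and miR-3092-3p) and 2 lower (miR-3082-5p and miR-3098-3p). The 75th percentile and quantile scalings called 2 each, without a share of all tested to set them against. The rank test could again call none. The 0 U array of mouse 10 had the highest signals of the 3 mice for several miRNAs that RNase raised. For miR-3098-5p they were 21, 23.8 and 48.8 on mice 7, 9 and 10, and for miR-3095-3p 3.2, 4.8 and 12.5.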

How the data were processed

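Total RNA or RNA depleted of small RNAs from mouse liver was hybridised to one-colour Agilent mouse miRNA microarrays with 1881 miRNAs. The deposited scanner files hold background-subtracted intensity per probe and miRNA (Agilent Feature Extraction 10.10.1.1 per the file headers, design build mm9). The deposited value table holds log2-scale values that the authors normalised by variance stabilisation. For each array the total intensity of a miRNA, or the sum over its probes where it was not detected, was refitted here to a variance-stabilised scale (glog2), so that signals below 0 could be kept and rescaled. These values differed from the deposited ones by an SD of 0.0956, with a correlation of at least 0.9998 on every array. Depth has no counterpart on arrays, and their number, 3 per group, limits the precision.

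miRNAs detected on at least 5 of 24 arrays (631) were fitted with limma 3.58.1 (R 4.3.3) as 8 group means, with trended empirical Bayes moderation and Benjamini-Hochberg adjustment. Arms were fitted in the same way as 5p minus 3p over the 92 hairpins with both arms kept. Tables and figures were made with Python 3.11.15. The steps were tested on simulated data. The block members and gene lists were chosen with earlier results of these data known. Named miRNAs were the 4 largest increases and decreases among calls for storage with DNase, depletion and RNase, those detected on all 3 arrays at 0 h with DNase, and both arms of hairpins with a called arm difference. Others named were chosen after their values were seen.

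Same-numbered samples come from the same mouse. The mean correlation of their residuals was 0.0914, against -0.0450 between mice. Alternatives were the deposited values, 75th percentile and quantile scaling (both with a floor of 1 intensity unit), normexp background correction with an offset of 50 on median spot signals, since mean spot signals were not used here, no filter, the mouse as a block, only the groups compared, the methods' rank test, the doses of mouse 9 from the titles, and leaving out each mouse. Positions come from RefSeq tables on GRCm38.p6, and no coordinates were converted.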

Additional observations from a re-analysis of the deposited data

How the results depend on the processing

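With the mouse as a replicate block, 82 of 82 single results kept their direction and call, the storage counts with DNase were 29 and 3, and no count moved by over 1.5 times. With the deposited values 81 of 82 kept their call, and with the doses of mouse 9 from the titles 20 of 20 did. The 75th percentile scaling kept 56, quantile normalisation 57, normexp 29 and no filter 80. Leaving out mouse 7, 9 or 10 kept 71, 73 or 81. The causes were not tested, except that the exact rank test cannot go below p = 0.1 with 3 against 3, so that its counts of 0 for storage, depletion, DNase omission at 0 h and 96 h and the second isolation without RNase, and for arms with storage, say nothing of stability. For RNase, 6 arrays against 3, its smallest p was 0.024 and its smallest adjusted p 0.057, and it called 0.

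With normexp, 11 were higher and 0 lower with storage and DNase (19% and 8.4% of all tested). Without DNase it was 12 and 0 (19% and 11.3%), with depletion 0 and 0 (3.65% and 6.5%), and with RNase 4 higher (6.66%). DNase omission at 96 h then called 1, and unequal arms numbered 3 and 2 for storage with and without DNase and 2 for RNase. With no filter, which tests all 114, storage with DNase gave 45 higher and 27 lower, where 34.9% and 29.7% of all 1881 were. Without DNase storage gave 44 and 21 (32.8% and 27.6% of all). Depletion gave 7 higher (5.32% of all) and RNase 2 lower (1.7% of all). DNase omission at 96 h gave 7, with 25, 25 and 18 hairpins for unequal arms. Under the alternatives, shares over the whole array are not given for DNase omission, unequal arms and the second isolation. Those counts cannot be read as particular to the block. Quantile normalisation gave 5 lower with storage and DNase, 5 higher and 1 lower with depletion, 12 higher and 5 lower with RNase, and 2 for the second isolation without RNase. The 75th percentile gave 1 lower with storage without DNase (22.7% of all tested) and 3 hairpins there. It gave 15 higher and 0 lower with depletion, 11 higher and 7 lower with RNase, and 2 for the second isolation without RNase.

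Leaving out each mouse gave 1 to 2 higher and 1 to 3 lower with depletion (3.49% to 4.91% and 20.6% to 23.3% of all tested). It gave 16 to 23 higher with RNase (33.3% to 46.6%), 0 to 5 for DNase omission at 96 h, and 3 to 5 hairpins for storage without DNase. The direction reversed for miR-3082-5p with RNase (-0.12 at the 75th percentile, -0.17 after quantile normalisation), miR-3070-2-3p with RNase (-0.034 with normexp), miR-3102-3p.2-3p with storage and DNase (-0.23 after quantile normalisation) and miR-3104-3p with storage without DNase (-0.13 after quantile normalisation). Signals near the detection limit bound what can be read from the dimmest miRNAs, whose changes in glog2 units are large for small differences in intensity.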
